A study of Homo sapiens with 2 samples.

Results

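Shallow barcodes of the hRBC library are the cell barcodes that carry 500 to under 3000 unique molecular identifiers (UMIs, which count captured RNA molecules). They were selected on this measured total and on nothing else, and 2873 of the 3858 hRBC barcodes, and of 5493 barcodes in both libraries, met the rule. The study perfused human umbilical vein endothelial cells (HUVECs), a primary culture of vein lining cells, with red blood cells and profiled them with 10x Genomics 5′ single-cell RNA sequencing. The cells had grown for about 48 hours in a microfluidic device with 50 µm channels, then met red cells for 4 hours, and were freed of red cells with ACK lysis buffer before capture. The hRBC library met healthy red cells only. The 5% pdRBC library met healthy red cells of which 5% had been dehydrated with nystatin and sucrose washes so that the mean hemoglobin concentration in the cells lay at 40 to 42 g/dL. Each condition is 1 library, and no source used here gives the numbers of devices and donors.

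The groups set side by side are the 2873 shallow hRBC barcodes and, as their reference, the 769 deep hRBC barcodes with 5000 or more UMIs; 216 barcodes between them entered neither. The same contrast was made in the 5% pdRBC library with 139 shallow and 1370 deep barcodes. The hRBC library held 14321939 UMIs and the 5% pdRBC library 16158876. Shallow barcodes were 74.5% of hRBC barcodes and held 24.9% of its UMIs, against 8.50% of barcodes and 1.57% of UMIs in the 5% pdRBC library. Deep barcodes were thinned at random to the depths of shallow ones, which left a median of 1063 UMIs in shallow and 1050 UMIs in thinned deep barcodes. With 1 library per condition there is no replicate check, so no p-value is given. Intervals are exact 95% counting intervals, which hold neither the spread between cultures nor that between cells.

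In droplet sequencing a barcode marks the RNA captured in a droplet, and its UMI total is the amount captured. In a sum over barcodes, fewer barcodes that hold a gene and less of it per barcode cannot be told apart. Endothelial cells carry PECAM1, an adhesion molecule of cell contacts, and CDH5, the cadherin of endothelial junctions. Chemokines such as CXCL1 draw white blood cells and are made by activated endothelium, linker histones such as HIST1H1E compact chromatin, and HBB encodes the beta chain of hemoglobin, which red cells rather than endothelium make.

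The shallow barcodes carried endothelial RNA. At a common 500 UMIs, 86.7% of shallow and 86.9% of deep barcodes had a UMI of at least 1 of 10 endothelial markers, and at least 3 markers were seen in 25.2% and 23.4%. Without thinning the shares with at least 1 were 96.9% and 100%. Apart from 1 barcode rich in HBB, described below, no cell type that should lack these genes was captured. That barcode had 806 UMIs and 0 from the listed endothelial genes. As it is 1 barcode, no share from free RNA could be set beside the shares above. Of the markers of other cells listed, many were at 0 in shallow barcodes and others were present in both groups. All 9 neutrophil genes were at 0, as were 9 of 14 T and NK cell genes with CD3D, CD3E and NKG7 among them, 6 of 8 B cell, 7 of 12 monocyte, 5 of 9 platelet, 3 of 9 epithelial and 3 of 13 fibroblast and mural cell genes. Platelet gene sums were 1601 CPM (UMIs of a gene per 1000000 UMIs) in shallow and 1334 CPM in deep barcodes, nearly all from GNG11. The ratio of these sums was 1.20, with an interval of 1.13 to 1.28. Fibroblast and mural cell sums were 409 CPM in shallow and 404 CPM in deep barcodes, led by RGS5 at 375 and 381 CPM. Epithelial sums were 334 CPM in shallow and 301 CPM in deep barcodes, with KRT7 at 182 and 143 CPM and KRT18 at 127 and 125 CPM. TRBC2 of T cells was at 28.6 CPM in shallow and 24.0 CPM in deep barcodes, and CD68 of monocytes at 31.1 and 33.4 CPM. The group as a whole thus carries the markers of its labelled cell type.

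Shallow barcodes held slightly more genes than deep ones at equal depth. They held a median of 390 genes at 500 UMIs, with quartiles of 381 and 398, against 377 in deep barcodes, with quartiles of 363 and 389. Mitochondrial transcripts took a median of 2.41% of UMIs in shallow barcodes and 1.80% in deep ones, and 10 shallow barcodes exceeded 20%. Ribosomal protein genes took a median of 13.9% in shallow and 17.5% in deep barcodes. No shallow barcode was 1 base away from a deep one, 9 barcodes occurred in both libraries, and 7 of these were shallow hRBC barcodes, 6 of them deep in the 5% pdRBC library. The quartile ranges of genes per barcode at 500 UMIs overlapped between the groups, but each median lay outside the other group's range.

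Over 6350 genes with 100 or more UMIs in the groups together, called measured here, the median log2 fold of shallow over deep was 0.08. A fold is the ratio of CPM with 0.5 UMIs added to each sum. A gene is called higher or lower where the fold is at least 1.5 either way and its interval leaves out 1. In the hRBC library 415 genes (6.54% of those measured) were higher in shallow barcodes and 67 (1.06%) lower. At 2-fold the counts were 83 and 3. The deep sum is small after thinning, so genes near the threshold depend on the draw. With another draw 168 of the 415 were again called higher and 17 of the 67 lower, and with deep barcodes left unthinned 185 and 10. The calls near the threshold, and most of the lower ones, are therefore given as a description of this draw. Unthinned folds are given beside many of the thinned ones below.

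**Figure D1:**
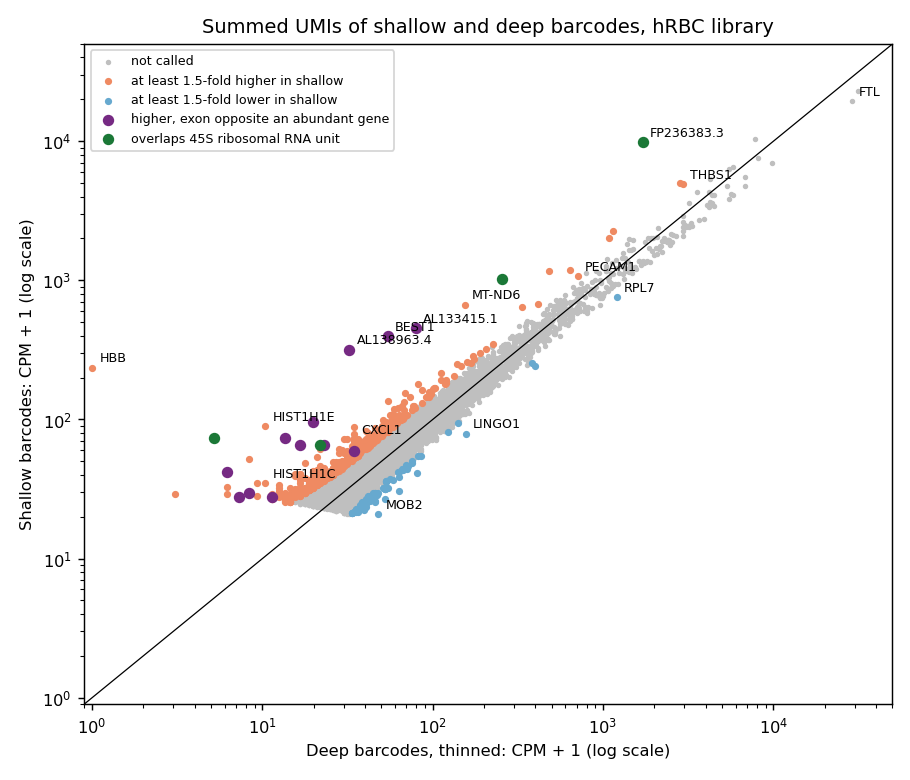
Level of each measured gene in the summed shallow barcodes (vertical axis, CPM + 1) and the summed, thinned deep barcodes (horizontal axis, CPM + 1) of the hRBC library, both on log scales, with 1 point per gene and equal levels on the diagonal. Most genes lie along the diagonal, while FP236383.3, BEST1, AL138963.4, HIST1H1E and HBB stand above it and the lower genes stay near it.

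Endothelial genes took a slightly larger share in shallow barcodes, and PECAM1 led them. PECAM1 (chr17:64319415-64413776, minus strand, GRCh38) stood at 1069 CPM in shallow barcodes and 707 CPM in deep ones, 1.51-fold higher with an interval of 1.39 to 1.64, and 1.48-fold against unthinned deep barcodes. At 500 UMIs a PECAM1 molecule was found in 39.1% of shallow and 32.1% of deep barcodes. PECAM1 was the 1 gene called higher among the 30 measured of 32 listed endothelial genes, a smaller share than the 6.54% of all measured genes, and none was called lower; 25 lay above 1 and the median log2 fold was 0.17, against 0.08 over all measured genes. MMRN1, a multimerin stored by endothelium, was at 342 CPM in shallow and 258 CPM in deep barcodes, and KDR, the main receptor for VEGF, at 216 and 163 CPM. ENG, a coreceptor for TGF-beta ligands, was at 1219 CPM in shallow and 1191 CPM in deep barcodes, with a fold of 1.02. The list sum was 9437 CPM in shallow and 8305 CPM in deep barcodes, a fold of 1.14 (1.11 to 1.16).

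Both measured linker histones of the replication clusters were called higher. HIST1H1E, which encodes a linker histone, had 316 UMIs or 88.5 CPM in shallow barcodes and 9 UMIs or 9.40 CPM in thinned deep ones. The fold was 8.93, with an interval of 4.89 to 20.8, and 10.3 against unthinned deep barcodes. HIST1H1C, another linker histone, had 121 UMIs or 33.9 CPM in shallow and 9 UMIs or 9.40 CPM in deep barcodes, a fold of 3.43 (1.84 to 8.07) and an unthinned fold of 5.32. HIST1H4C, a core histone gene, stood at 51.8 CPM in shallow and 47.0 CPM in deep barcodes and was called neither way. These are the 3 measured of 69 listed replication histone genes, whose sum was 295 CPM in shallow and 126 CPM in deep barcodes. Of the 3, 2 were called higher, against 6.54% of all measured genes. Such genes are a family of similar sequence, mostly without a poly(A) tail, so their assignment is uncertain.

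Among histones outside the replication clusters, 3 of 9 measured were called higher, against 6.54% of all measured genes, and none lower. H1F0, the linker histone of resting cells, was at 77.6 CPM in shallow and 33.4 CPM in deep barcodes, a fold of 2.29 (1.61 to 3.46) and 2.09 unthinned. H2AFX, the variant that is phosphorylated at DNA breaks, had a fold of 1.60 that was 1.29 against unthinned deep barcodes. H1FX was at 99.7 CPM in shallow and 65.8 CPM in deep barcodes. H2AFZ, a variant found at promoters, was at 623 CPM in shallow and 521 CPM in deep barcodes. The median log2 fold of the 9 was 0.11.

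Both linker histone genes that were higher lie on chromosome 6, and the 250 bases before their starts are shown because both genes were called higher in shallow barcodes. Capitals mark CCAAT and AAACACA on either strand. The sequences are RefSeq's for GRCh38.p14, matched for 4 of 4 genes shown here, with HIST1H1E at chr6:26156079-26156328 on the plus strand and HIST1H1C at chr6:26056471-26056720 on the minus strand.
HIST1H1E: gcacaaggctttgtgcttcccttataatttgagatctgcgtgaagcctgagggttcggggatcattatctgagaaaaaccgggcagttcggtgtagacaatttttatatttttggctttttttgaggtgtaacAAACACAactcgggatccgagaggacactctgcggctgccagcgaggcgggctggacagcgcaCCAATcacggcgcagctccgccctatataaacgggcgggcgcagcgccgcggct
HIST1H1C: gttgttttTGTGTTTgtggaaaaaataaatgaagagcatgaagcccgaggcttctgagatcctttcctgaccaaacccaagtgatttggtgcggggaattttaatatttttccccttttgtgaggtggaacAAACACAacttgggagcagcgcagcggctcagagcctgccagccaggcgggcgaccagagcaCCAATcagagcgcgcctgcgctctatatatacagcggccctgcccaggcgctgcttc
Each held 1 CCAAT, and HIST1H1E held 1 and HIST1H1C 2 AAACACA. Of 35116 RefSeq windows of that length, 32.0% held CCAAT and 4.82% held AAACACA on either strand. A match is a description of these letters only.

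CXCL1 and CXCL8 were called higher in shallow barcodes, while the sum of all listed chemokines and cytokines was lower. CXCL1, which draws neutrophils, had 252 UMIs or 70.6 CPM in shallow barcodes and 32 UMIs or 33.4 CPM in deep ones, a fold of 2.08 (1.46 to 3.15) and 1.96 unthinned. CXCL8, also a neutrophil chemokine, was at 68.3 CPM in shallow and 36.6 CPM in deep barcodes, 1.85-fold higher (1.31 to 2.74) and 1.72-fold unthinned. CXCL1 and CXCL8 were the 2 called higher among 6 measured of 30 listed chemokines and cytokines, against 6.54% of all measured genes. None was called lower. CCL2, which draws monocytes, was at 108 CPM in shallow and 80.4 CPM in deep barcodes. CXCL12, a ligand of CXCR4, was at 23.8 and 15.7 CPM, a fold of 1.48 that was 2.34 unthinned, and IL32 at 70.3 and 69.0 CPM.

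MIF, an abundant cytokine, was at 1353 CPM in shallow and 1784 CPM in deep barcodes, a fold of 0.76 (0.72 to 0.80). It set the sign of the list sum, which was 1801 CPM in shallow and 2088 CPM in deep barcodes with a fold of 0.86 (0.82 to 0.91), while the median log2 fold of the 6 was 0.49. Of 9 measured inflammatory target genes, 3 were called higher, against 6.54% of all measured genes, and none lower. IER3, an early response gene, stood at 144 CPM in shallow and 72.1 CPM in deep barcodes, a fold of 1.98 and 1.84 unthinned. PTX3, a secreted pentraxin, stood at 167 and 102 CPM, with 1.62 and 1.58. TNIP1, an inhibitor of NF-kB signalling, stood at 78.7 and 47.0 CPM, a fold of 1.66 that was 1.40 unthinned and then not called. The 9 had a median log2 fold of 0.14.

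CXCL1 molecules were concentrated in few barcodes, and the part of this in its fold was not tested. The 29 shallow barcodes richest in CXCL1, which are 1% of the group, held 46.4% of its UMIs, those richest in HIST1H1E held 21.5% of that gene's, and those richest in PECAM1 5.76%. A CXCL1 molecule was found in 140 of 2873 shallow barcodes and 92 of 769 deep ones without thinning, and at 500 UMIs in 2.47% and 1.56%, with exact binomial intervals of 1.94% to 3.11% and 0.809% to 2.71%. These intervals overlap. Along depth CXCL1 had no single direction, as the plot of levels along depth shows. It stood at 45.9, 87.8 and 66.0 CPM in the 3 shallow bands, at 7.27 CPM at 3000 to under 5000 UMIs, at 7.92 CPM at 5000 to under 10000 and at 42.0 CPM at 10000 or more.

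CXCL1 and CXCL2 lie on chromosome 4, and the 250 bases before their starts are shown because the molecules of both gathered in the same cluster of shallow barcodes. This pair was a choice: CXCL8, with 73.4% of its shallow UMIs in that cluster, is not shown. Capitals mark GGAATTTCC, a form of the NF-kB motif, on either strand. The windows are chr4:73869143-73869392 on the plus strand for CXCL1 and chr4:74099196-74099445 on the minus strand for CXCL2.
CXCL1: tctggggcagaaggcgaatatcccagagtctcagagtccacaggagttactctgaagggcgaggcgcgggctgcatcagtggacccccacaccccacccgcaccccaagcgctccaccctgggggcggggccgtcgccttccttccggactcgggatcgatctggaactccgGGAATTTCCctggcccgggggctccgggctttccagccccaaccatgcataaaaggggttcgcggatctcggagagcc
CXCL2: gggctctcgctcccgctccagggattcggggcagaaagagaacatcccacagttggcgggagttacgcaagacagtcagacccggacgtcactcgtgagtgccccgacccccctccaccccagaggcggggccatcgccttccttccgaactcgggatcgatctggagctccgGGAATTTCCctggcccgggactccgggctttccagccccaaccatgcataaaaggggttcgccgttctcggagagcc
CXCL1 and CXCL2 are close paralogs, so reads may be split between them. Each window held the motif once, and 0.413% of RefSeq windows of that length held it on either strand. Both windows are alike in sequence, so they do not count as separate matches.

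Shallow barcodes were clustered among themselves into 6 clusters. The genes that lead a cluster define it and are no result. Cluster 4, led by CXCL2, TNFAIP3, CXCL8 and CXCL1, had 104 barcodes (3.62%). It held 69.0% of CXCL1, 76.8% of CXCL2, 73.4% of CXCL8 and 50.3% of CCL2 UMIs, with 3.87% of all shallow UMIs. Cluster 0, led by NCAPH, SKA1, HJURP and CDC20 of chromosome segregation, had 724 barcodes (25.2%) and held 92.4% of MKI67 UMIs. It held 50.3% of HIST1H1E and 52.1% of HIST1H1C UMIs, with 23.8% of all UMIs. Cluster 1, led by HBB and CXCL12, had 1889 barcodes (65.8%) and 43.7% of HIST1H1E UMIs. HBB does not mark this cluster at large, since only 9 shallow barcodes held HBB and 1 of them held 757 of its 838 UMIs. Cluster 3, led by GPC5 and LDLRAD4, had 118 barcodes and a median of 7.19% mitochondrial UMIs. Clusters 2 and 5 had 27 and 11 barcodes. Summed over each cluster, 9 or 10 of the 10 endothelial markers reached 3 UMIs. Sums of many barcodes reach this easily, so no identity of clusters or barcodes is read from it. Clusters 0 and 1 held 19.1% and 70.5% of PECAM1 UMIs, with 23.8% and 66.8% of all UMIs.

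**Figure D2:**
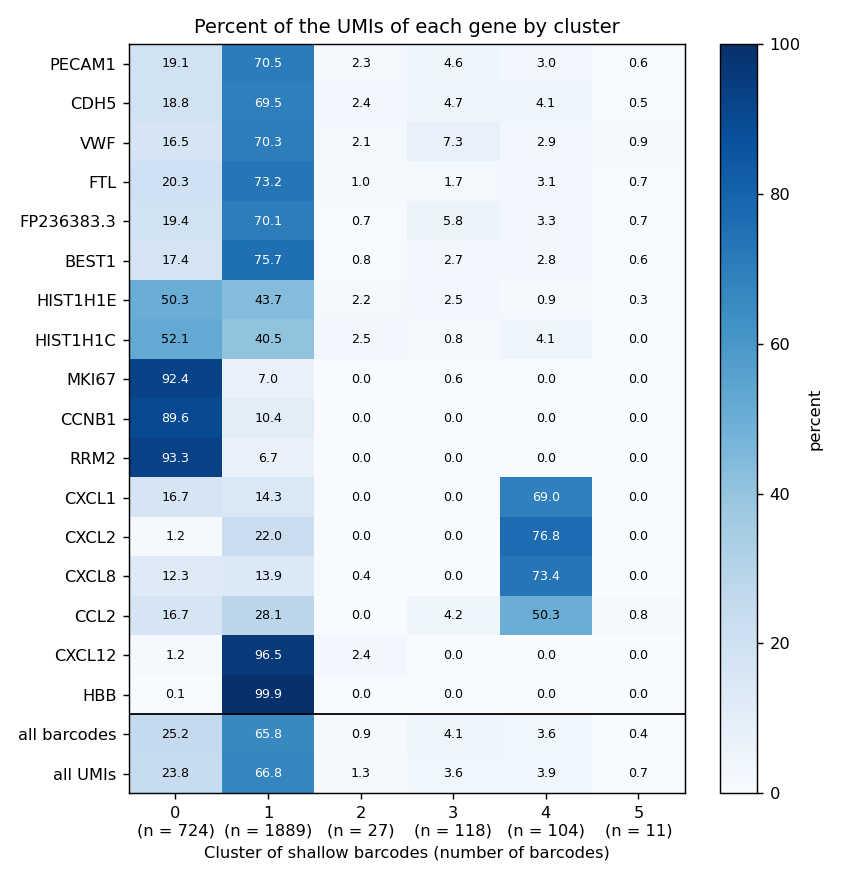
Percent of the shallow-barcode UMIs of each gene (rows) that fell in each of 6 clusters of shallow barcodes (columns, with the number of barcodes), with the shares of all barcodes and all UMIs in the bottom rows. CXCL1, CXCL2 and CXCL8 gather in cluster 4, MKI67, CCNB1 and RRM2 in cluster 0, and HIST1H1E is split between clusters 0 and 1.

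HBB RNA was found in shallow barcodes and in none of the deep ones. HBB had 838 UMIs in 9 shallow barcodes, or 235 CPM, and 0 UMIs in deep barcodes. With a floor of 3 counts in the thinned deep sum, 3.13 CPM, HBB was at least 74.9-fold higher. A single barcode carried 757 of these UMIs, 90.3% of the total. That barcode had 806 UMIs of 33 genes, 93.9% from HBB, with 4 UMIs of HBA1 and 7 of HBA2, near-identical genes of the alpha chain, and no UMI of any of the 32 endothelial genes. Without it HBB had 81 UMIs or 22.7 CPM and was at least 7.24-fold higher.

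The other HBB barcodes looked different. In 6 of them HBB had 11 to 18 UMIs among 510 to 598 UMIs of 388 to 429 genes, with 1 to 5 endothelial UMIs. The last 2 had 3 and 1 HBB UMIs. By band, HBB was at 854 CPM at 500 to under 1000 UMIs, 0.605 CPM at 1000 to under 2000 and 0 at 2000 to under 3000. Finding 0 of 769 deep barcodes with HBB allows a share of up to 0.390%, against 9 of 2873 shallow barcodes (0.313%), so a difference in the share of barcodes was not detectable. The 5% pdRBC library had no HBB UMI in any barcode.

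The alpha chain genes HBA1 and HBA2 had UMIs only in the barcode richest in HBB, and none in deep barcodes. Of 10 hemoglobin genes 6 were at 0 in shallow barcodes, including HBD, HBG1 and HBG2, and HBM had 1 UMI. HBQ1, a theta chain gene, had 0 UMIs in shallow and 9 UMIs in unthinned deep barcodes. Of 20 erythroid genes 10 were at 0, including ALAS2, which begins heme synthesis in red cell precursors, and SLC4A1, the band 3 anion exchanger. The 6 measured ones, which endothelium also expresses, had none called either way and a median log2 fold of -0.03. BPGM, which makes bisphosphoglycerate, was at 49.3 CPM in shallow and 44.9 CPM in deep barcodes.

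Cell cycle genes took a larger share in shallow barcodes than in deep ones, by an amount that moved with the draw. Of 4 measured S phase genes out of 30, 3 were called higher, against 6.54% of all measured genes, and none lower. TYMS, which makes thymidylate, was at 41.7 CPM in shallow and 18.8 CPM in deep barcodes, a fold of 2.17 that was 1.23 unthinned. SLBP, which binds histone messages, had folds of 1.91 and 1.36. The list sum was 470 CPM in shallow and 285 CPM in deep barcodes, a fold of 1.64 (1.45 to 1.88), and 1.34 (1.26 to 1.42) unthinned.

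Of 11 measured G2 and M phase genes out of 30, 5 were called higher, against 6.54% of all measured genes, and none lower. MKI67, a coat protein of mitotic chromosomes, was at 48.2 CPM in shallow and 27.2 CPM in deep barcodes, with a fold of 1.74 and 1.81 unthinned. CCNB1, the mitotic cyclin B1, had 2.07 and 2.26, and TPX2, a spindle assembly factor, 2.79 and 1.74. UBE2C and PTTG1, of the anaphase machinery, had 1.99 and 1.66 thinned but 1.17 and 1.20 unthinned. CENPF, a kinetochore protein, had a fold of 0.71 with an interval of 0.50 to 1.06. The sum was 1351 CPM in shallow and 1080 CPM in deep barcodes, a fold of 1.25, and 1.13 unthinned.

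The sum of G2 and M phase genes did not run one way with depth. It was 1586 CPM at 500 to under 1000 UMIs, 712 CPM at 5000 to under 10000 and 1305 CPM at 10000 or more. Against barcodes of 10000 or more UMIs the fold was 1.08 (1.00 to 1.16). Among deep barcodes the sum was thus lower in the shallower band.

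A large gain in shallow barcodes came from genes annotated over ribosomal RNA units on chromosome 21. FP236383.3 (ENSG00000280441, chr21:8380665-8410645, plus strand, GRCh38) spans the 45S ribosomal RNA precursor unit RNA45SN3. It had 9884 CPM in shallow and 1707 CPM in deep barcodes, a fold of 5.79 (5.51 to 6.09) and 7.14 unthinned. At 500 UMIs it was seen in 97.3% of shallow and 45.8% of deep barcodes. Per barcode it took a median of 0.906% of UMIs in shallow and 0.110% in deep barcodes. All 4 measured genes that overlap such a unit were called higher, against 6.54% of all measured genes. Among them FP671120.4 had 1030 CPM in shallow and 255 CPM in deep barcodes. The units are near-identical repeats, so how their reads were split among these genes is uncertain.

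Several of the largest folds belonged to genes that have an exon on the strand opposite an abundant gene. Such genes, opposite an exon of a gene at 500 or more CPM in hRBC, were 34 of 6345 measured genes with annotation (0.536%), 12 of 414 called higher (2.90%), and 7 of 16 higher at 4-fold (43.8%). BEST1, a chloride channel of the retinal pigment epithelium, lies opposite the ferritin gene FTH1 on chromosome 11 and had 395 CPM in shallow and 53.3 CPM in deep barcodes, 7.34-fold higher (5.60 to 10.0) and 10.2-fold unthinned. FTH1 itself, the ferritin heavy chain, had 22939 CPM in shallow and 31272 CPM in deep barcodes. AL138963.4, opposite TPT1, was at 317 CPM in shallow and 31.3 CPM in deep barcodes, a fold of 9.95 and 14.4 unthinned, and TPT1 at 4292 and 3552 CPM. AL133415.1, opposite the intermediate filament gene VIM, was at 454 CPM in shallow and 78.4 CPM in deep barcodes, and VIM at 4339 and 4188 CPM.

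Others of this kind were AC011603.2 opposite TUBA1B (7.14-fold), FSIP1 opposite THBS1 (5.54-fold) and AL162586.1 opposite ENG (4.00-fold). The partner genes had folds of 0.73 to 1.66. No source used here gives the strand setting of the counting. Whether reads of a gene and its opposite-strand partner were kept apart was therefore not checked.

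Mitochondrial messages were higher as well. Of 13 measured, 6 were called higher, against 6.54% of all measured genes, and none lower. The sum of the 13 took 2.70% of UMIs in shallow and 1.89% in deep barcodes, a fold of 1.43. MT-ND6, the 1 protein gene read from the mitochondrial light strand, had 666 CPM in shallow and 154 CPM in deep barcodes, 4.33-fold higher (3.67 to 5.16) and 5.30-fold unthinned. MT-CO1, a subunit of cytochrome oxidase, was at 4968 CPM in shallow and 2830 CPM in deep barcodes. The fold of MT-ND6 was the largest of the 6. With barcodes over 20% mitochondrial UMIs left out, 412 genes were called higher and 69 lower.

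Ribosomal protein genes ran the other way. Of 82 measured, 77 had a fold below 1, 2 were called lower and none higher. Against 1.06% of all measured genes called lower, nothing is read from those 2 calls. The list sum took 13.8% of UMIs in shallow and 17.5% in deep barcodes. RPL7 stood at 758 CPM in shallow and 1199 CPM in deep barcodes, a fold of 0.63 (0.59 to 0.68), and RPS20 at 255 and 382 CPM. RPL5 was among the few above 1, at 1160 CPM in shallow and 1042 CPM in deep barcodes. The median log2 fold of these genes was -0.31, against 0.08 over all measured genes.

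Abundant messages of other kinds were mixed. FTL, the ferritin light chain, was at 19325 CPM in shallow and 28779 CPM in deep barcodes, a fold of 0.67 (0.66 to 0.68) just short of the threshold. TMSB10, a small actin-binding protein, was at 5559 CPM in shallow and 6854 CPM in deep barcodes. ACTB, the cytoplasmic actin, was at 5355 CPM in shallow and 4240 CPM in deep barcodes. The median annotated exon length was 5446 bases in genes called higher, 4247 in genes called lower and 5364 in all measured genes.

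Long nuclear RNAs were mixed: of 9 measured, none was called. MALAT1, a nuclear speckle RNA, was at 10429 CPM in shallow and 7795 CPM in deep barcodes, a fold of 1.34. NEAT1, the scaffold of paraspeckles, was at 1904 CPM in shallow and 2215 CPM in deep barcodes. THBS1, a matrix protein released by endothelium, was at 4886 CPM in shallow and 2938 CPM in deep barcodes, 1.66-fold higher (1.60 to 1.73) and 1.77-fold unthinned. It was the 1 called higher of 9 measured flow genes, and none was called lower, so nothing is read from that count against the 6.54% of all measured genes.

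Of 12 measured heat shock genes, 3 were called higher, against 6.54% of all measured genes, and none lower. BAG3, a cochaperone, was at 123 CPM in shallow and 64.8 CPM in deep barcodes. HSPA5, the chaperone of the endoplasmic reticulum, was at 319 CPM in shallow and 206 CPM in deep barcodes. DNAJA1, also called higher, was at 108 CPM in shallow and 70.0 CPM in deep barcodes. The unthinned folds of BAG3, HSPA5 and DNAJA1 were 1.58, 1.41 and 1.27. Of these only BAG3 stayed above 1.5-fold, so nothing is read from the count of heat shock genes. Of 17 measured immediate early genes 1, ATF3, was called higher and none lower. Against 6.54% of all measured genes, nothing is read from that count. ATF3 had 40.3 CPM in shallow and 24.0 CPM in deep barcodes, with a fold of 1.65 that was 1.27 unthinned and below 1 with another draw. Among 18 measured matrix and secreted genes none was called, and 16 had a fold above 1, as did 60.6% of all measured genes.

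The remaining genes with the largest higher folds were mostly sparse. UNC5D, a netrin receptor, had 100 UMIs in shallow and 2 UMIs in deep barcodes, a ratio of 10.8 with an interval of 3.61 to 112 and 4.94 unthinned. SV2C, a synaptic vesicle protein, had 182 UMIs in shallow and 7 in deep barcodes, and WWTR1-AS1 had 113 and 5; their unthinned folds were 9.31 and 7.60. PCBP1-AS1 was at 34.2 CPM in shallow and 8.36 CPM in deep barcodes. TRAP1, a mitochondrial chaperone, was 3.07-fold higher and 1.72-fold unthinned.

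The genes with the largest lower folds were closer to 1 without thinning. LINGO1, a transmembrane protein of neurons, moved least, with 278 UMIs or 77.8 CPM in shallow and 149 UMIs or 156 CPM in deep barcodes, a fold of 0.50 (0.41 to 0.61) and 0.53 unthinned. MOB2, a kinase regulator, had a fold of 0.42 that was 0.66 unthinned. ZNF22 had 0.47 and 0.67, and UPF3A, of nonsense-mediated decay, 0.50 and 0.70. The other 8 by the naming rule, PRXL2C, UCKL1, SLC31A1, UNKL, TRPT1, TBC1D2, PPP2R3C and NME6, had unthinned folds between 0.69 and 0.92.

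Levels along depth ran evenly for some genes and changed within the shallow group for others. From the lowest band to the highest, 500 to under 1000, 1000 to under 2000, 2000 to under 3000, 3000 to under 5000, 5000 to under 10000 and 10000 or more UMIs, FP236383.3 stood at 10907, 9588, 9337, 6822, 2672 and 1104 CPM. BEST1 stood at 419, 395, 370, 308, 131 and 18.8 CPM. MT-ND6 stood at 645, 605, 468, 242 and 101 CPM in the bands from 1000 UMIs up. Each of the 3 genes was lower in every deeper band, and most of the decline lay above 3000 UMIs.

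HIST1H1E stood at 68.4, 100, 88.4, 58.2, 23.8 and 5.27 CPM in the same bands, and PECAM1 at 1018, 1027, 1197, 969, 770 and 713 CPM. Both were highest in a band inside the shallow group. Just inside the limit, 24 barcodes within 100 UMIs below 3000 had 1121 CPM of PECAM1, 8645 CPM of FP236383.3 and 8 UMIs of HIST1H1E. Just outside it, 17 barcodes within 100 UMIs above it had 949 CPM of PECAM1, 9350 CPM of FP236383.3 and 3 UMIs of HIST1H1E. FTL stood at 16524 CPM just inside and 21875 CPM just outside, CXCL1 had no UMI on either side, and HBB had 0 UMIs just inside and 10 just outside.

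**Figure D3:**
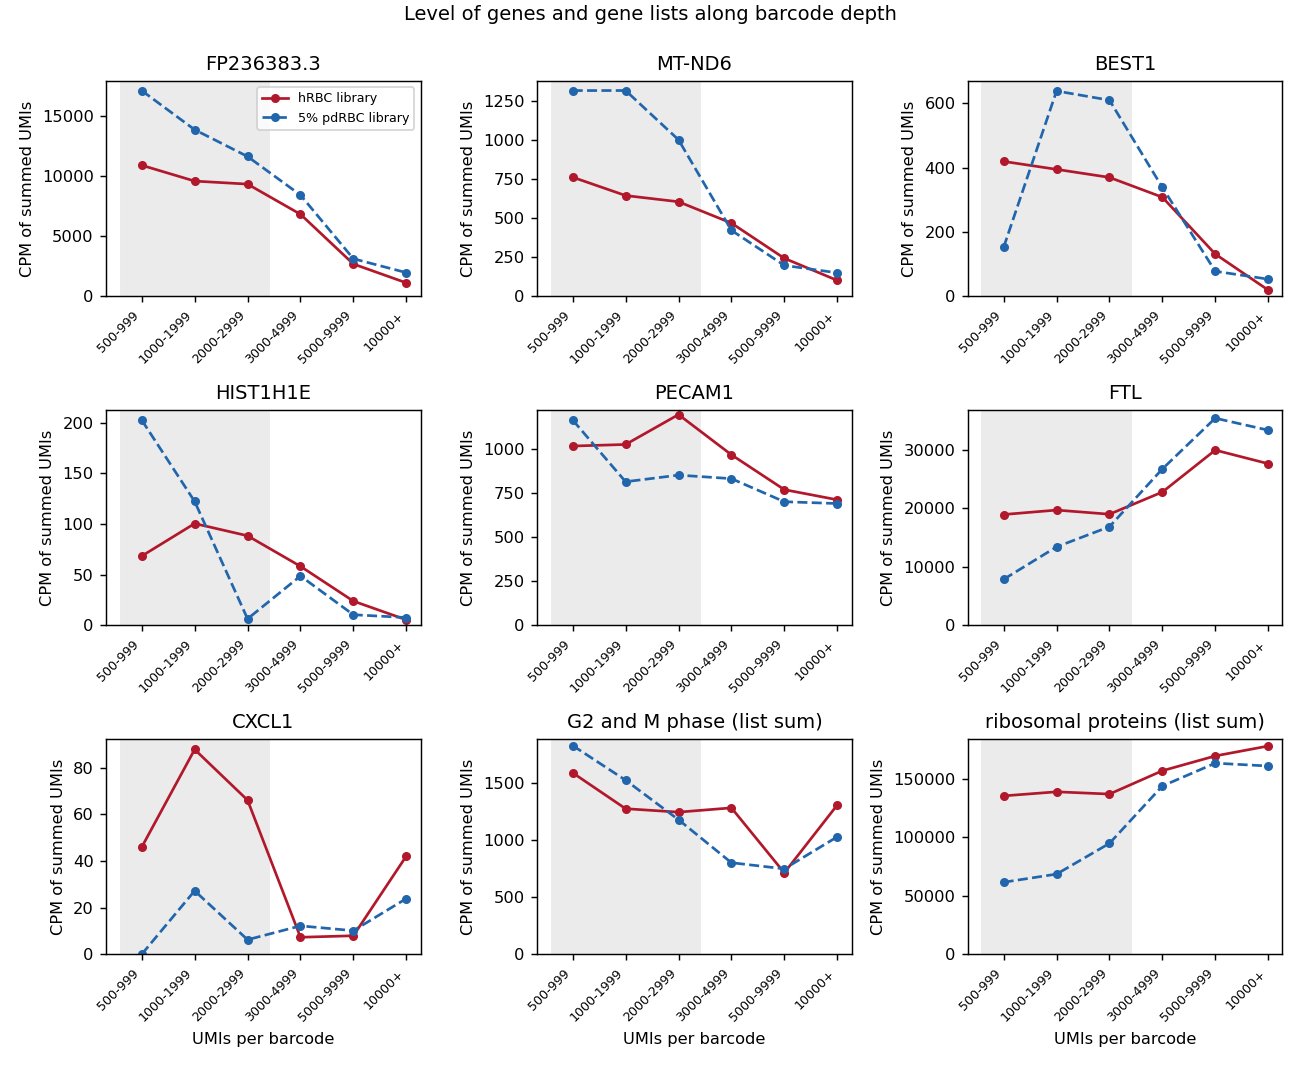
Level (vertical axes, CPM of summed UMIs, from 0) of 7 genes and 2 list sums in 6 bands of UMIs per barcode (horizontal axes, shallow bands shaded), in the hRBC library (solid) and the 5% pdRBC library (dashed). FP236383.3 and MT-ND6 are lowest at 10000 or more UMIs in both libraries, FTL and the ribosomal protein sum are lower in the shallow bands, and CXCL1 and the G2 and M phase sum run no single way.

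In the 5% pdRBC library the same contrast gave more calls: of 4601 measured genes, 985 (21.4%) were higher and 676 (14.7%) lower in its 139 shallow barcodes, of which 13 exceeded 20% mitochondrial UMIs. Of the 238 hRBC higher genes measured there, 182 also had a fold above 1, 94 were called higher and 2 lower. Over all genes measured there 53.4% had a fold above 1. Of the 33 hRBC lower genes measured there, 16 also had a fold below 1, 7 were called lower and 3 higher. The libraries do not share barcodes beyond the 9 above, but their shallow groups differ in size and in mitochondrial share, whose part in these counts was not tested.

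FP236383.3 was 5.79-fold higher in hRBC and 4.74-fold in 5% pdRBC shallow barcodes, BEST1 7.34-fold and 8.85-fold, and MT-ND6 4.33-fold and 6.46-fold. HIST1H1E had 14 UMIs in the 5% pdRBC shallow barcodes and 27 in its deep ones, 5.20-fold higher. PECAM1, at 866 CPM in shallow and 678 CPM in deep barcodes there, was not called. CXCL1 had 3 UMIs in the 5% pdRBC shallow barcodes and 42 in the deep ones, too few for a direction. CXCL8 was at 74.8 CPM in shallow and 63.1 CPM in deep barcodes there. The differences between the libraries were not tested.

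**Figure D4:**
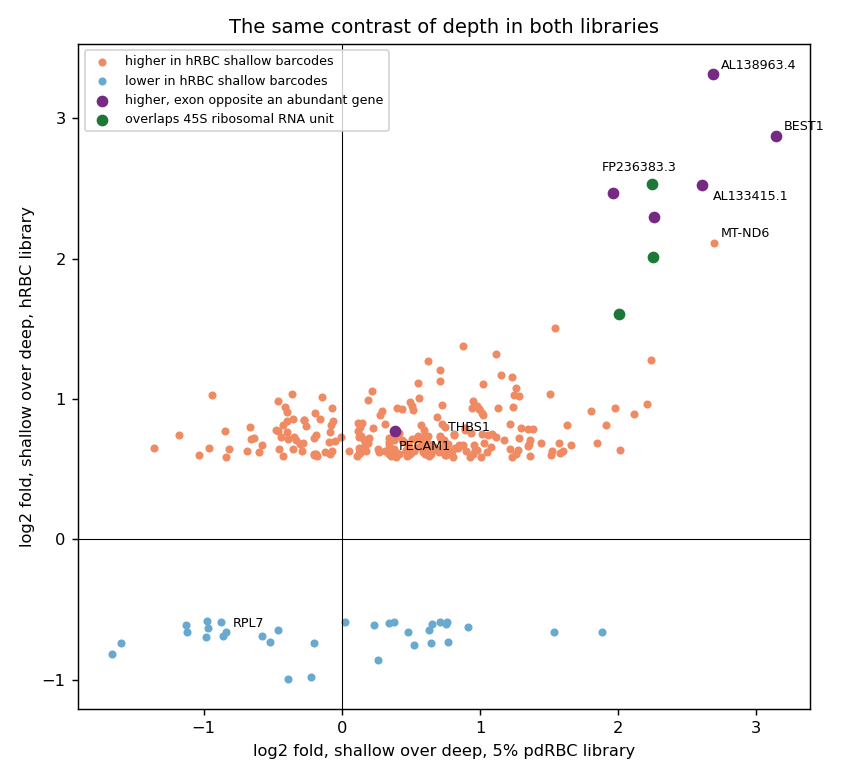
Log2 fold of shallow over deep barcodes in the hRBC library (vertical axis) against the same in the 5% pdRBC library (horizontal axis) for genes called in hRBC and measured in both, 1 point per gene. The genes over ribosomal RNA units, MT-ND6 and most of those opposite an abundant exon lie at the upper right, while the lower genes scatter to both sides of 0 in the 5% pdRBC library.

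Several list sums lay on the same side of 1 in both libraries. The replication histone sum had a fold of 2.32 in hRBC and 2.78 in 5% pdRBC, and the S phase sum 1.64 and 1.51. The ferritin and metallothionein sum had a fold of 0.72 in hRBC and 0.49 in 5% pdRBC, and the ribosomal protein sum 0.78 and 0.53. The endothelial sum was not among these. It had a fold of 1.14 in hRBC, but 1.00 in 5% pdRBC, with an interval of 0.96 to 1.05 that holds 1.

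**Figure D5:**
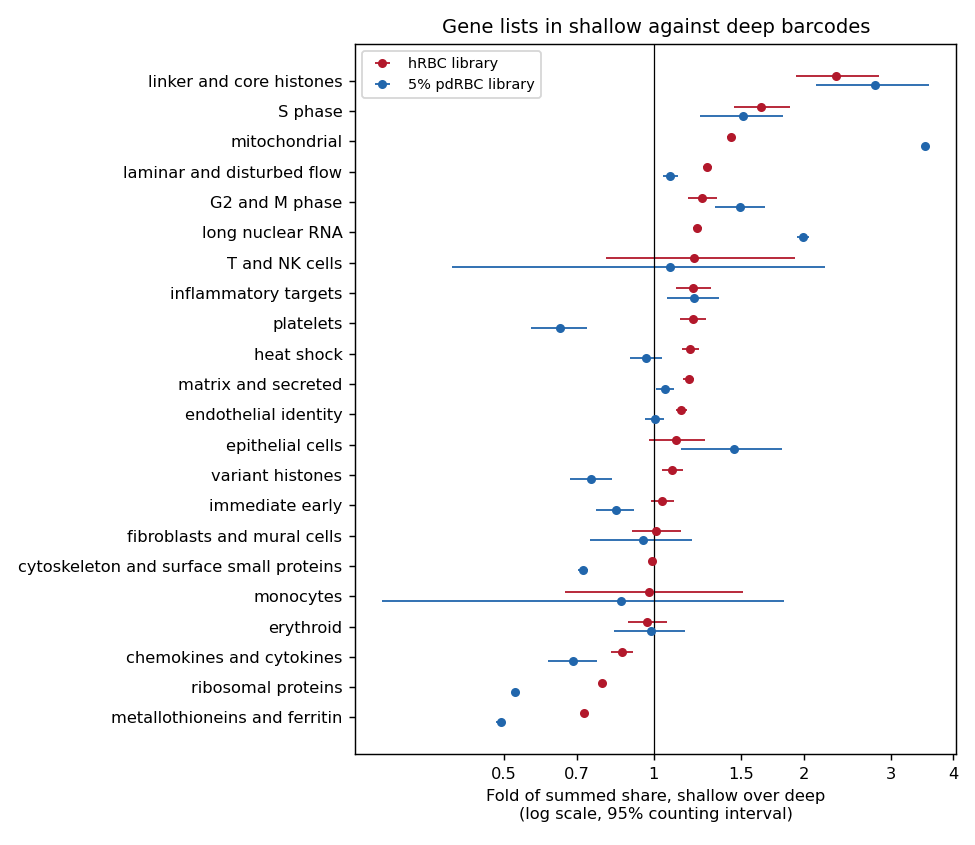
Fold of the summed share of each gene list, shallow over deep (horizontal axis, log scale), in the hRBC library (red) and the 5% pdRBC library (blue), with 95% counting intervals as bars. Lists with fewer than 20 UMIs in either hRBC group or in the deep 5% pdRBC group are left out. No minimum was set for the shallow 5% pdRBC group, where T and NK cell genes had 7 UMIs and monocyte genes 6. Replication histones and S phase genes lie highest in hRBC, and ribosomal protein and ferritin genes lowest in both libraries.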

How the data were processed

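The authors deposited whole-number UMI counts for each gene in each barcode, from Cell Ranger 7.0.0 on GRCh38, per the submitters' processing notes; no source used here gives the annotation release or strand setting. No barcode has fewer than 500 UMIs, and doublets were not removed. Barcodes, genes and gene lists were chosen with earlier results of these data known. Deep barcodes were thinned without replacement to totals drawn from the shallow ones (NumPy 2.4.6, seed 1), and UMIs were summed per group: 3571532 shallow and 957190 deep. Genes needed 100 UMIs in both groups together to count as measured. Fold intervals are exact Clopper-Pearson intervals (SciPy 1.17.1). They were tested on simulated group sums without barcodes or thinning, so that test does not cover spread between barcodes or draws. A count of 0 allows 3 counts. Intervals and floors cover counting error only. No test was made. Named genes are 4 markers, the 12 largest folds each way among genes at 20 or more CPM whose interval leaves out 1 (without mitochondrial, ribosomal protein, clone-named and LINC genes), and up to 6 members per list. Clone-named, ribosomal and mitochondrial genes named beside these, CXCL2 and partner genes were chosen after their values were seen. Shallow barcodes were clustered with Scanpy 1.11.5 (2000 variable genes, 30 components, 15 neighbours, Leiden at resolution 0.5). Of 36601 genes 34616 matched GENCODE release 29 by identifier, for positions and exon lengths. Some results are not reported here. Alternatives changed the thinning, the draw, the depth limits, the mitochondrial filter, the scaling, the gene minimum and the fold.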

Additional observations from a re-analysis of the deposited data

Results flagged for a closer look

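In 4 named genes and 2 lists the intervals of the fold lay on opposite sides of 1 in the libraries; the difference itself was not tested. The folds of shallow over deep were 0.84 in hRBC and 1.93 in 5% pdRBC for MEG3, 0.86 and 1.94 for NEAT1, 1.31 and 0.770 for CCN2, and 1.20 and 0.623 for GNG11. They were 1.09 and 0.749 for histones outside the replication clusters, and 1.20 and 0.647 for platelet genes, nearly all GNG11. The 5% pdRBC shallow barcodes had a mitochondrial share with an upper quartile of 10.5%, against 3.06% in the hRBC shallow barcodes; its part in these values was not tested.

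In hRBC barcodes of 3000 to under 5000 UMIs, which no comparison uses, HBB had 11 UMIs, above the 3 that a count of 0 allows. They lay in 2 barcodes with 10 and 1 UMIs.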

How the results depend on the processing

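No paired analysis was possible because each group is 1 library and its shallow and deep barcodes are different barcodes. Values below are folds of summed share unless named as counts or log2 folds, and the cause of a move was not tested. Against unthinned deep barcodes S phase was at 1.34 and G2 and M phase at 1.13. With every barcode thinned to 500 UMIs 184 genes were called higher, endothelial genes were at 1.09, chemokines at 0.815 and S phase at 1.41, and log2 folds turned to 0.21 for SLC31A1 and -0.42 for UBE2C. With another draw S phase was at 1.40, and log2 folds turned to 0.017 for UCKL1, 0.15 for SLC31A1, 0.038 for TBC1D2 and -0.44 for ATF3.

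With shallow barcodes of 500 to under 1000 UMIs 180 genes were called higher and 36 lower, endothelial genes were at 1.04, chemokines at 0.759, replication histones at 1.64, S phase at 1.23 and G2 and M phase at 1.39. Log2 folds turned to 0.073 for UPF3A, 0.41 for PRXL2C, 0.30 for PPP2R3C, -0.13 for PTX3 and -0.058 for ATF3. With those of 1000 to under 3000 UMIs chemokines were at 0.934, S phase at 1.42 and G2 and M phase at 1.15, and log2 folds turned to 0.0050 for NME6 and -0.24 for PTTG1. Hemoglobins then had 1 UMI in shallow and 0 in deep barcodes, and no fold is given. Against barcodes of 10000 or more UMIs replication histones were at 3.20, S phase at 1.37 and G2 and M phase at 1.08, and log2 folds turned to 0.047 for TRPT1, 0.099 for NME6 and -0.16 for H2AFX.

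On totals without mitochondrial, ribosomal protein and MALAT1 UMIs endothelial genes were at 1.10. Folds centred on the median gave 265 genes higher and 126 lower, endothelial genes at 1.07 and chemokines at 0.815. A minimum of 20 UMIs gave 675 higher and 126 lower, one of 500 UMIs 49 and 3, and a 2-fold threshold 83 and 3. Without the barcode richest in HBB, an alternative chosen after seeing the data, hemoglobins were at least 7.24-fold higher. The other values of the counts and sums stayed within 1.5 times or within their interval. Of 116 named genes, 86 stayed within their interval with another draw, 99 without thinning and 116 with at most 20% mitochondrial UMIs. The size of the thinned deep sum limits the calls of sparse genes.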
